A study of Mus with 4 samples.

Results

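Small nucleolar RNAs (snoRNAs) and small Cajal body RNAs (scaRNAs) guide the modification of other RNAs, and the sites described here lie in these guide RNAs themselves. The members were all pseudouridine (Ψ) sites whose gene name begins with Snord (box C/D), Snora (box H/ACA) or Scarna (Cajal body). They made up 104 of the 755 sites of the table and 61 of its 465 genes. Box C/D RNAs contributed 77 sites in 40 genes, box H/ACA RNAs 22 sites in 18 genes and Cajal body RNAs 5 sites in 3 genes. Guide RNAs that carry only a predicted gene name were not counted among them, and the names were taken as given, since no sequence was used here to look for the boxes.

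Ψ was mapped by PRAISE, which treats RNA with bisulfite reagents so that the modified base is passed over in reverse transcription and is read as a deletion. The 4 samples described were cochlear tissue of mice with the Otof c.1315 C>T change, which turns codon 439 of the otoferlin gene into a stop. The values analysed are headed OTOF-/- and were taken as those of the 2 untreated replicates, both of which carry that change. The match rests on the genotype and replicate number in the sample titles. The 2 samples given RESTART v3, an AAV-delivered guide snoRNA with further components, were not analysed here. The labels do not say whether the replicates came from separate animals, so each p-value below measures read sampling in these libraries alone, and the tissue mixes hair cells with many other cell types.

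Box C/D RNAs bind fibrillarin and direct ribose methylation, whereas box H/ACA RNAs fold into hairpins joined by a hinge and direct dyskerin to turn a target uridine into Ψ. Most targets of both classes are in ribosomal RNA (rRNA). Cajal body RNAs carry either kind of box or both and guide the modification of spliceosomal small nuclear RNAs. A few snoRNAs, among them U3, U8, U13, U14 and U17, serve the cutting and folding of the rRNA precursor. In mammals most of these RNAs are cut out of the introns of host genes.

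Each replicate had a chemistry library and a control library without the chemistry. The level of a site was the percentage of reads with a deletion in the chemistry library minus that in the control library. A site was either a single position or a run of adjacent positions among which a deletion could not be placed. The chemistry library held between 2 and 24931 reads at a listed member site in replicate 1 (median 143) and between 4 and 18261 in replicate 2 (median 244). The control libraries had medians of 359 and 334.5 reads. At member sites the median deletion ratio was 20.3% and 22.7% in the chemistry libraries of replicates 1 and 2, against 0.114% and 0.0959% in the control libraries, where the highest values were 1.95% and 1.69%.

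A site was called in a replicate where a two-sided Fisher exact test of chemistry against control reads gave p under 0.005, the control ratio was under 5%, the level was over 5 points and both libraries had at least 20 reads. In both replicates 71 of the 104 sites, in 44 genes, were called, or 68.3%, beside 56.7 percent of all 755 sites and 54.8% of the sites of other genes. The authors had listed only sites that passed nearly the same rules, and all 71 member sites with 20 reads in the 4 libraries were called. The count therefore describes depth and the listing rules, and is no test of modification. Values in both replicates were given for 81 sites, 14 further sites had a value in replicate 1 and 9 in replicate 2.

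Box H/ACA sites had the higher levels. The median of the mean level of both replicates was 52.2% over 13 box H/ACA sites (interquartile range 25.7 to 65.7), 17.8% over 56 box C/D sites (10.6 to 45.0) and 23.4% over the 2 Cajal body sites, among sites called in both replicates. Over all 71 it was 19.9%, against 28.1% over 363 sites of other genes with the same read minimum. In replicate 1 the medians were 46.7% for box H/ACA and 17.8% for box C/D sites, and in replicate 2 they were 54.3% and 16.9%. Levels over 50% were found at 7 of 13 box H/ACA sites and 13 of 56 box C/D sites, and levels under 10% at 2 and 14. The classes overlapped over nearly the whole scale, as the plot of each site shows. Over all 22 listed box H/ACA sites, called or not, the median chemistry reads were 69 and 133, against 195 and 267.5 over all 77 listed box C/D sites. These read medians include shallow sites that the level medians leave out, so they do not give the depth of the called sites. The part of depth in the result was not tested. The difference between the classes was not tested either, since sites of 1 RNA and copies of 1 gene are not independent.

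**Figure D1:**
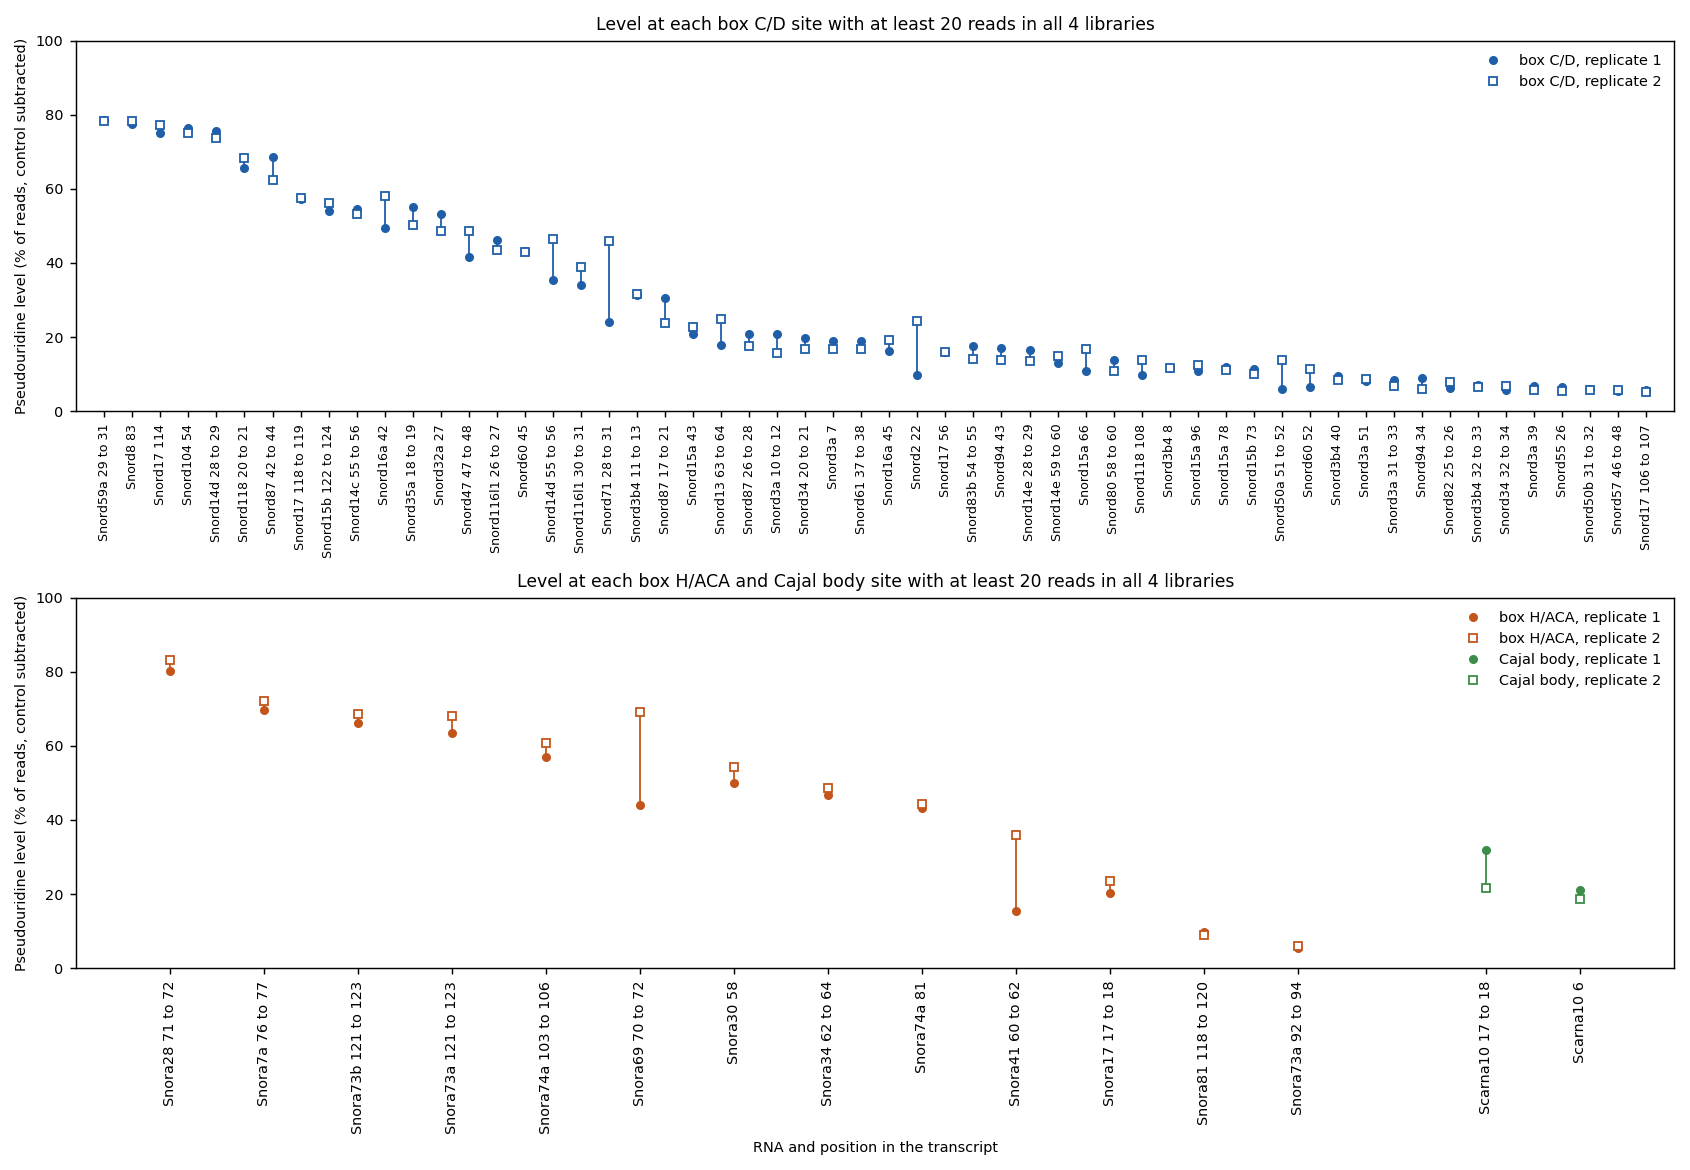
Ψ level (percent of reads with a deletion, control subtracted) at each of the 71 sites covered by 20 or more reads in every library, ordered by mean level within each class, with a filled circle for replicate 1, an open square for replicate 2 and a line joining them. Box C/D sites reach from 5.34% to 78.4% and box H/ACA sites from 5.73% to 81.7%, and the longest joining line belongs to Snora69.

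Among box H/ACA sites called in both replicates, the highest level was found in Snora28, an rRNA pseudouridylation guide whose gene lies within Eif5, meaning here and below that the bounds of the host gene enclose it, with strand not compared. Its run at positions 71 to 72 (GRCm39 chromosome 12, 111507451) had 80.3% and 83.1% in replicates 1 and 2, from 84 and 83 chemistry reads. Snora7a, an rRNA guide within the ribosomal protein gene Rpl32, had 69.7% and 72.2% at positions 76 to 77. Both RNAs had this 1 site in the list, and their replicates differed by less than 3 points. Snora30 had 50% and 54.3% at position 58, and Snora34 had 46.7% and 48.5% at positions 62 to 64.

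Snora69 and Snora41 gave unlike values in the replicates. Snora69, within Rpl39, had 44.1% from 34 reads and 69.2% from 39 reads at positions 70 to 72 (Fisher exact test of the chemistry reads, two-sided, p = 0.0358, adjusted p = 0.329 over 441 sites). Snora41, within Eef1b2, had 15.6% from 45 reads and 35.9% from 49 reads at positions 60 to 62 (same exact test, p = 0.0343, adjusted p = 0.322). The gaps of 25.1 and 20.4 points did not pass the test after adjustment.

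Snora73a and Snora73b are the U17 snoRNAs, which take part in the maturation of 18S rRNA, and both lie within Snhg3. They carried a run at the same positions, 121 to 123. It had 66.3% and 68.7% in Snora73b (818 and 527 reads) and 63.4% and 67.9% in Snora73a (645 and 432 reads). Reads of near-identical copies can be assigned to either copy, and with the reads of both added together the levels were 65.0% and 68.4%. Snora73a had a second run at positions 92 to 94 with 5.57% and 5.89%, from 2530 and 1575 reads, which was the lowest level of a called box H/ACA site. One RNA thus held levels that differed 11.5-fold at sites with 26 bases between them.

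Snora74a, within Snhg4 on chromosome 18, was the only box H/ACA RNA with 3 listed sites. It had 57.1% and 60.7% at positions 103 to 106 and 43.4% and 44.3% at position 81, each from more than 1000 reads in both replicates. Position 153 was listed in replicate 2 alone with 7.47% (95% Wilson interval of the chemistry ratio 4.94 to 11.2). The ordering of the 2 deep sites was the same in both replicates.

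Other box H/ACA sites of low level called in both replicates were in Snora81, an rRNA guide within Eif4a2, with 9.80% and 8.97% at positions 118 to 120, and Snora17, within Snhg7, with 20.3% and 23.4% at positions 17 to 18. Snora17 had a second run at positions 92 to 93, listed in replicate 1 alone with 17.2% from 29 reads. Snora43, within the same host gene, had 40.0% from 25 reads and 36.8% from 19 reads at position 36 and missed the read minimum in replicate 2. Snora21 was listed in replicate 1 alone, with 5.94% from 289 reads at positions 18 to 21 (Wilson interval 3.98 to 9.63), and Snora65 likewise, with 12.5% from 24 reads at positions 14 to 15.

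The place of the sites along the RNA was described by dividing each RNA into 3 equal parts. The RNA length was known for 55 of the 61 RNAs, and all 18 box H/ACA RNAs were among them. Of the 22 listed box H/ACA sites, 7 lay in the 5′ part, 12 in the middle part and 3 in the 3′ part. Of the 13 called in both replicates, 1 lay in the 5′ part, 11 in the middle part and 1 in the 3′ part. The 7 middle sites in RNAs of up to 140 bases, a group chosen after the values were seen, lay 49 to 54 bases from the 3′ end, although the RNAs were 107 to 129 bases long. The called ones among them were the sites in Snora28, Snora7a, Snora69, Snora30, Snora34 and Snora41, with mean levels from 25.7% to 81.7%. The other was position 65 of Snora15, which was listed in replicate 2 alone with 66.7% from 6 reads. The hinge and the boxes were not located, because no sequence of these RNAs was used here.

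Of the 66 listed sites in box C/D RNAs of known length, 23 lay in the 5′ part, 28 in the middle part and 15 in the 3′ part. Of the 48 called in both replicates, 21, 20 and 7 lay in these parts, and their medians were 17.9%, 18.6% and 45.2%. The difference between the classes in position was not tested. Among the 93 listed sites in RNAs of known length, none ended closer than 15 bases to the 3′ end. The counts for Cajal body RNAs were too small for a position to be described.

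**Figure D2:**
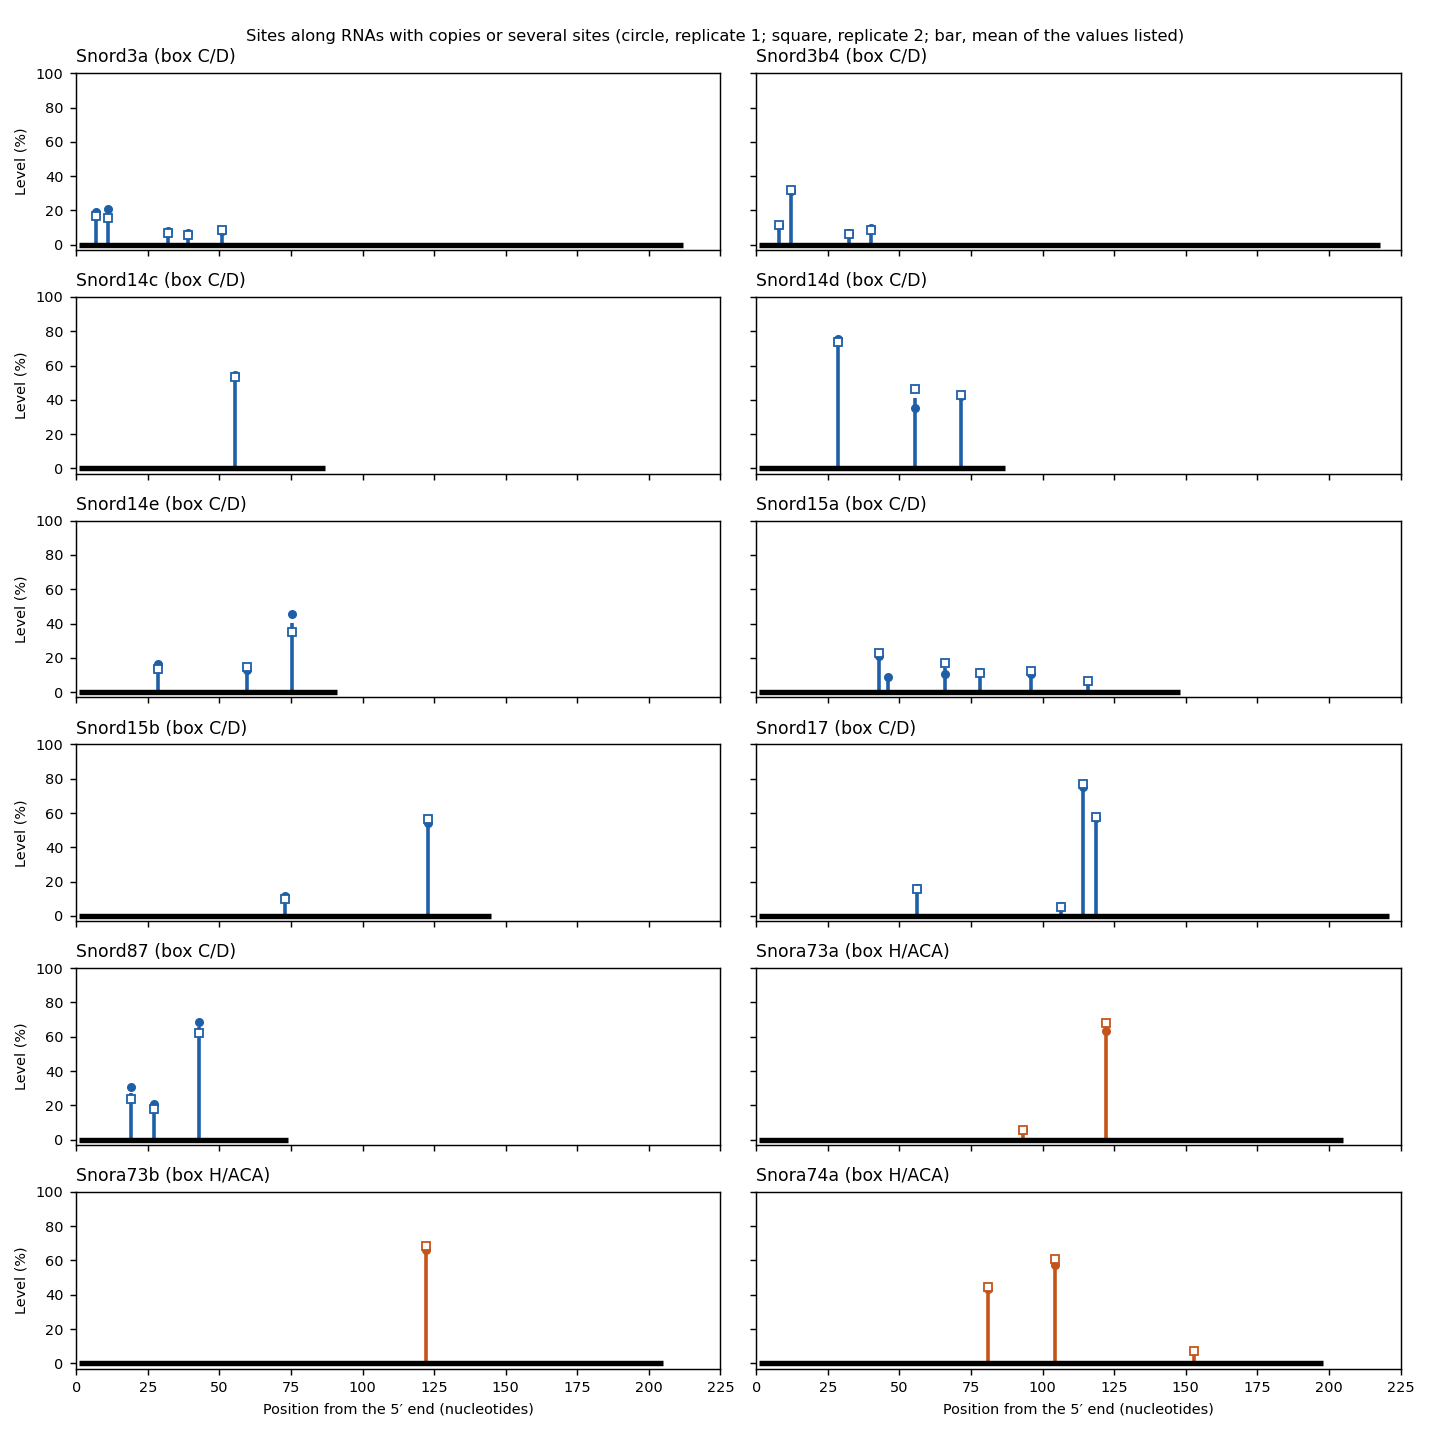
Ψ level (percent) against position from the 5′ end (nucleotides) in 12 box C/D and box H/ACA RNAs with copies or several sites, with a circle for replicate 1, a square for replicate 2, a bar for the mean of the values listed and a black line for the length of the RNA. Sites of Snord3a and Snord3b4 lie near the 5′ end, and the 4 sites of Snord17 reach from 5.34% to 76.1%.

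The U3 snoRNA, encoded by the Snord3 genes, base-pairs with the rRNA precursor in the small subunit processome. It had the deepest sites of the set, all within 51 bases of the 5′ end. Snord3b4 had 31.5% and 31.7% at positions 11 to 13, 11.7% and 11.6% at position 8, 9.52% and 8.49% at position 40, and 7.14% and 6.39% at positions 32 to 33. Position 40 (chromosome 11, 87353151) was covered by 24931 and 18261 chemistry reads, and it was the 1 member site of 71 at which the replicates differed (exact test, adjusted p = 0.0112), beside 2.27 percent of the 441 sites tested in the table. The difference was 1.03 points, so at this depth a very small gap passed the test.

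In Snord3a, position 7, the run at positions 10 to 12 and position 39 each lay 1 base earlier than a site of Snord3b4, while the runs that end at position 33 ended at the same base in both. The levels were 18.9% and 16.8% at position 7, 20.9% and 15.8% at positions 10 to 12, 8.28% and 6.73% at positions 31 to 33, and 6.84% and 5.64% at position 39. A further site at position 51, with no listed counterpart in Snord3b4, had 8.26% and 8.78%. By mean level the run near the 5′ end was the highest site of both genes, although in replicate 2 of Snord3a position 7 was above it, and from position 31 on the levels of both genes lay between 5% and 10%. Snord3a had fewer chemistry reads than Snord3b4 at every matching site, 457 and 305 against 6513 and 4322 at that run. How the aligner divided reads between these copies was not given, and whether reads of one copy were assigned to the other was not tested.

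The U8 snoRNA (Snord118) is needed for processing of the large subunit rRNA. It had 65.7% and 68.3% at positions 20 to 21 and 9.79% and 13.8% at position 108. The U13 snoRNA (Snord13), which in human cells guides an acetylation of 18S rRNA, had 17.9% and 25% at positions 63 to 64. Its neighbouring run at positions 66 to 67 was listed in replicate 2 alone with 25%, and in that replicate both runs had the same counts, 16 deletions in 64 chemistry reads.

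The U14 snoRNAs, which both guide methylation and serve cutting of the 18S precursor, were represented by 4 genes. Snord14c, Snord14d and Snord14e lie within Hspa8 and Snord14a within Rps13. At positions 28 to 29, Snord14d had 75.7% from 121 and 73.8% from 147 chemistry reads, while Snord14e had 16.6% from 1468 and 13.4% from 1796. The control reads at these sites ran the other way, 1649 and 1538 in Snord14d and 559 and 764 in Snord14e. The ratio of chemistry to control reads was 0.0734 and 0.0956 in Snord14d and 2.63 and 2.35 in Snord14e, among the lowest and the highest of the member sites. With the reads of both copies added together the level was 20.9% and 17.8%. The gap between the copies went with these ratios, and the part of read assignment in it was not tested.

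The second U14 site, which ends 31 bases from the 3′ end, had 54.5% and 53.3% in Snord14c, 35.3% and 46.6% in Snord14d and 13.04% and 14.8% in Snord14e. The summed level was 29.96% and 35.9%. Another site, 15 bases from the 3′ end, had 42.1% and 42.9% in Snord14d and 45.5% and 35.0% in Snord14e, with fewer than 20 chemistry reads in replicate 1. Snord14d and Snord14e thus had closer values at this site than at the others. Snord14a had 77.8% from 18 reads and 68.4% from 19 reads at positions 57 to 58.

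The list of RNAs that serve rRNA precursor processing held 11 genes, those of U3, U8, U13, U14 and U17 named above and Snora74a. Both replicates called 22 of its 27 sites, or 81.5%, beside 56.7 percent of all sites, a count that follows depth and the listing rules. The median level of these 22 sites was 18.1%. The 49 called sites of the other snoRNAs and scaRNAs had a median of 21.8%. Over all listed sites, called or not, the processing RNAs were the deeper ones, with median chemistry reads of 645 and 432 against 106 and 218. The difference between these lists was not tested.

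Among box C/D guides of rRNA methylation, Snord17 showed the widest range. At position 114 (chromosome 2, 144108009) it had 75.1% and 77.2%, from 1997 and 1460 chemistry reads. It had 57.2% and 57.5% at positions 118 to 119, 16.1% and 16.0% at position 56, and 5.61% and 5.08% at positions 106 to 107. The last had the lowest mean of all called member sites, with 6 bases between it and the highest of this RNA, and the gap of the mean levels was 70.8 points. Each of the 4 sites had at least 821 chemistry reads, and the replicates differed by at most 2.10 points.

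Snord15a and Snord15b, the U15 snoRNAs, both lie within Rps3. Snord15a had the most sites of any member, 6 along the RNA, of which 4 were called in both replicates. Position 43 had 20.9% and 22.7%, position 66 had 10.9% and 16.9%, position 78 had 11.9% and 11.2%, and position 96 had 10.7% and 12.4%. The run at positions 45 to 47 was listed in replicate 1 alone with 8.95%, and position 116 in replicate 2 alone with 6.504%. Snord15b held a different pattern, with 53.9% and 56.3% at positions 122 to 124 and 11.5% and 9.97% at position 73. No site of Snord15a reached the level of that run, which ends 21 bases from the 3′ end.

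Snord87 had 68.5% and 62.4% at positions 42 to 44, 30.6% and 23.8% at positions 17 to 21, and 20.8% and 17.7% at positions 26 to 28. All 3 values were lower in replicate 2, by less than 7 points. Snord8, which guides methylation of U6 small nuclear RNA, had 77.6% and 78.5% at position 83. It had 2 weak sites in replicate 1 alone, 5.63% at position 80 and 5.41% at positions 66 to 68. Snord94, another U6 guide, had 17.1% and 13.8% at position 43 and 8.88% and 5.94% at position 34, and position 39 was listed in replicate 1 alone with 10.4%.

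Snord59a and Snord104 each had 1 listed site, with a high level. Snord59a, within Atp5b, had 78.6% and 78.3% at positions 29 to 31 (chromosome 10, 127920041), the highest mean of a called box C/D site. Snord104, within Gm36220, had 76.5% and 75.2% at position 54. The replicates of both differed by less than 2 points, from at least 222 chemistry reads. At the low end, Snord57 had 5.39% and 5.76% at positions 46 to 48, and Snord50b had 6.001% and 5.73% at positions 31 to 32. Snord50a had 6.91% from 304 reads at position 48 in replicate 2 alone, the deepest of the sites listed in 1 replicate.

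The snoRNAs within Rpl13a are rRNA methylation guides and are known in mouse cells for a part in lipotoxic stress. Of these, Snord35a had 55.0% and 50.2% at positions 18 to 19, and Snord32a had 53.3% and 48.6% at position 27. Snord34 had 19.6% and 16.9% at positions 20 to 21 and 5.74% and 6.82% at positions 32 to 34. RNAs from 1 host gene thus held levels on both sides of the class median. Snord2, which shares the host Eif4a2 with Snora81, had 9.68% and 24.2% at position 22. From Gas5, Snord47 had 41.7% and 48.7% at positions 47 to 48 and, in replicate 2 alone, 7.14% at positions 38 to 40. Snord80, another Gas5 snoRNA, had 13.9% and 10.8% at positions 58 to 60 and, in replicate 1 alone, 8.57% at positions 34 to 35.

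Another 31 sites, in 24 genes, were not picked by the naming rule, and a few of them are given here as examples chosen after their values were seen. Of these 31, both replicates called 15, beside 56.7 percent of all sites of the table, with mean levels from 6.05% to 53.8% (median 17.9%). Snord60, an rRNA methylation guide, had 43.3% and 43.0% at position 45 and 6.60% and 11.5% at position 52, so sites with 6 bases between them again had unlike levels. Snord82, within the nucleolin gene Ncl, had 6.36% and 7.85% at positions 25 to 26, from more than 1000 reads in both replicates. Snord71 had 24.2% and 45.9% at positions 28 to 31, from 20 and 21 chemistry reads, which was the widest gap between replicates among box C/D sites called in both. Shallow sites of this group reached high levels that the read minimum kept out of the medians. Snord111 had 73.1% from 16 reads and 81.4% from 34 reads at positions 44 to 48, and the rRNA guide Snora64 had 45.5% in both replicates, from 11 and 22 reads, at positions 13 to 16.

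The 3 named Cajal body genes gave few and shallow sites. Scarna10, within Ncapd2, is in human the U85 RNA, which carries both kinds of box and guides modification of U5 small nuclear RNA. The mouse record used here has 71 bases, and the boxes were not located in it. Scarna10 had 31.9% and 21.7% at positions 17 to 18 and 21.1% and 18.8% at position 6. Position 8 was listed in replicate 1 alone with 5.10% (Wilson interval 2.20 to 11.4). These sites had 32 to 134 chemistry reads. Scarna17 had 15.4% at position 46 in replicate 1 alone (Wilson interval 6.15 to 33.5), and Scarna3b had 11.8% at positions 84 to 85 in replicate 2 alone (5.51 to 23.4). With 2 sites in 1 gene called in both replicates, no level of the class can be set against the others.

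Box H/ACA RNAs had 1.22 listed sites per RNA, box C/D RNAs 1.93 and Cajal body RNAs 1.67, beside 1.61 per gene in other genes. Only RNAs with a listed site entered, and neither the difference nor the part of depth in it was tested. A single site was listed in 15 of 18 box H/ACA RNAs and in 19 of 40 box C/D RNAs, and 3 or more in 1 and 9 of them. Of the 17 RNAs with at least 2 sites called in both replicates, the highest level was at least 2 times the lowest in 11 and at least 5 times in 4, namely Snord17, Snora73a, Snord118 and Snord15b. Of 43 pairs of neighbouring sites, 12 had 3 bases or fewer between them, such as position 42 of Snord16a with 49.5% and 58.2% and position 45 with 16.2% and 19.3%.

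Runs made up 65 of the 104 sites, or 62.5%, against 53.9% of the sites of other genes. In box H/ACA RNAs 16 of 22 sites were runs, in box C/D RNAs 47 of 77 and in Cajal body RNAs 2 of 5. The median level of called sites was 27.0% over 44 runs and 16.0% over 27 single positions. Within box C/D RNAs it was 20.4% over 32 runs and 14.7% over 24 single positions, and within box H/ACA RNAs 56.7% over 11 runs and 48.0% over 2 single positions. Runs of 2 positions had a median of 24.3% and runs of 3 of 25.7%. The gap by form was smaller than that by class, and both forms held sites over 70%. Sites of other genes with the same read minimum also had a higher median over 200 runs, 33.0%, than over 163 single positions, 21.3%. The difference was not tested.

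**Figure D3:**
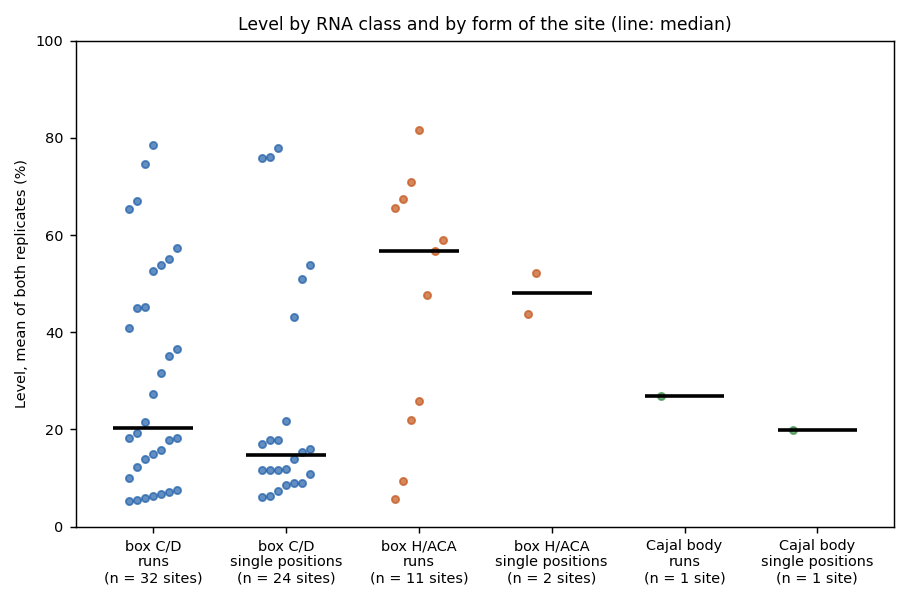
Mean Ψ level of both replicates (percent) at sites covered by 20 or more reads in every library, by RNA class and by runs against single positions, where each point is a site and the line is the median. Box H/ACA runs have the highest median, 56.7%, and box C/D single positions the lowest of the groups with more than 2 sites, 14.7%.

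The replicates gave close values at most of the sites called in both, the only ones compared here. Over the 71 called sites the difference of replicate 2 minus replicate 1 had an SD of 6.01 points and a median size of 2.42 points. It stayed within 5 points at 57 sites. Across sites Pearson's r was 0.970 and Spearman's rho 0.951, where the points share libraries and each site sets its own level. The difference was over 10 points at 6 sites, those in Snora69, Snord71, Snora41 and Snord2, the run at positions 55 to 56 of Snord14d and the run at positions 17 to 18 of Scarna10. Its SD was 9.38 points over 15 sites whose shallower chemistry library had 20 to 50 reads and 1.60 points over 17 sites with at least 1000. Box H/ACA sites were higher in replicate 2 at 12 of 13, by a median of 2.81 points, and box C/D sites at 25 of 56.

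Depth also bounded what could be listed. Among called sites of replicate 2 with 20 to 50 reads the lowest level was 16.7%, while with at least 1000 reads it was 5.08%. In replicate 1, where control reads were often several times more, levels from 6.38% were called at 20 to 50 reads. Across the 71 sites, level and chemistry reads had a Spearman's rho of -0.213 in replicate 1 and -0.349 in replicate 2, a description in which the listing rule has a part. Of the 23 sites listed in 1 replicate, 18 were called there, with a median of 7.37% and a highest level of 25%, and 12 of these 18 were under 10%. Their level in the other replicate is unknown. Of the sites listed in both replicates, 10 had fewer than 20 reads in a library, among them Snord88a with 100% from 2 and 4 reads.

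**Figure D4:**
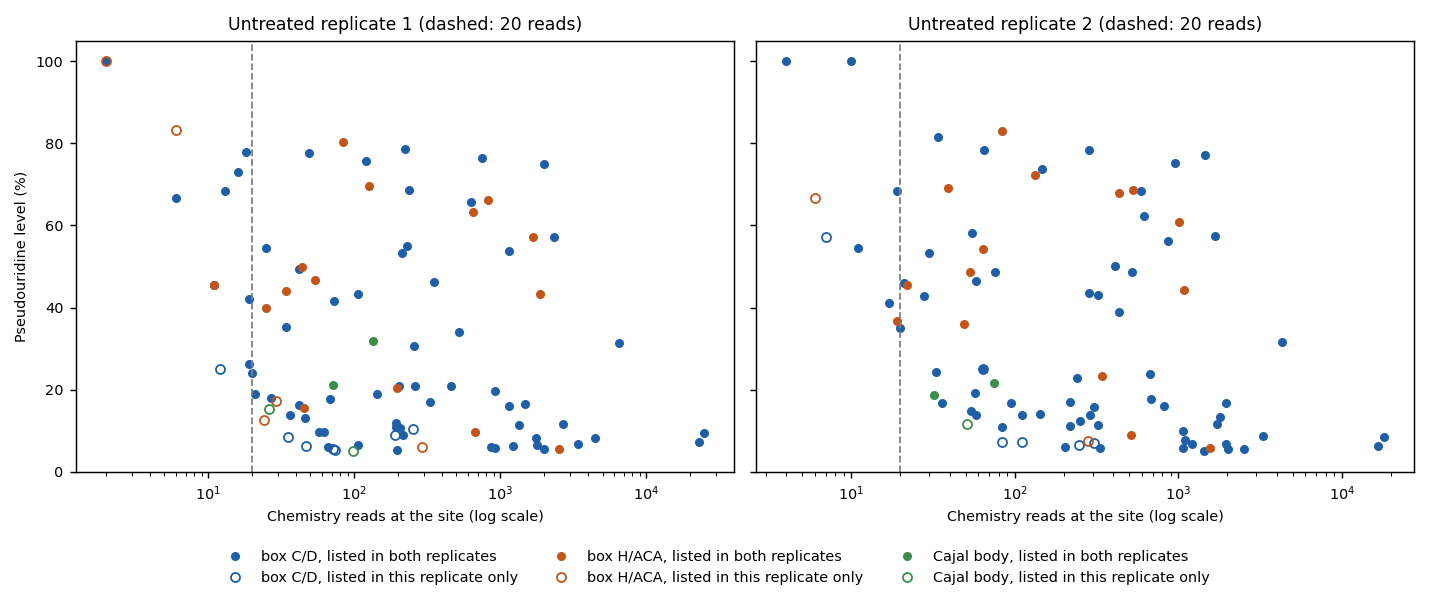
Ψ level (percent) against the chemistry reads at the site (log scale) in each untreated replicate, for all listed sites of the 3 classes, with open circles for sites listed in that replicate alone and a dashed line at 20 reads. Of the 18 called sites listed in 1 replicate, 12 lie under 10%. Those listed in 1 replicate with fewer than 20 reads lie higher, up to 100% in Snora31. Sites over 60% reach from under 10 to 1997 reads.

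Host genes were looked up for 57 of the 61 RNAs by asking which gene bounds enclose them, without regard to strand. Ribosomal protein genes enclosed 14 RNAs, other coding genes 25, long non-coding RNA genes 10 and genes of both kinds 4, and no enclosing gene was found for 4. The median level of called sites was 45.0% for RNAs in long non-coding hosts (9 sites in 6 RNAs), 18.0% in ribosomal protein genes (16 sites) and 17.9% in other coding genes (27 sites). The median was 40.1% in hosts of both kinds (6 sites in 4 RNAs, all box C/D) and 14.8% where no host was found (8 sites). Long non-coding hosts held 5 of the 18 box H/ACA RNAs and 4 of the 40 box C/D RNAs. The box C/D sites called there were in Snord104 and Snord116l1, with mean levels of 75.9%, 45.0% and 36.5%. The median of all called box C/D sites was 17.8%. The part of the class in the medians by host was not tested at this number of sites. Snord116l1, of the imprinted cluster within Snhg14 that in human is lost in Prader-Willi syndrome, had 46.3% and 43.6% at positions 26 to 27 and 34.1% and 38.8% at positions 30 to 31.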

How the data were processed

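The deposited table gave, for each Ψ site and replicate, deletion counts and total read counts in the chemistry and control libraries, without normalization. The deposited ratios are the fraction of reads with a deletion, and the level deposited by the authors is the difference of those fractions. The deposited p-value is from the authors' contingency test. These ratios, levels and p-values were not used, and all were computed anew from the counts. Per the study's methods, rRNA was removed (the labels name polyA RNA), libraries came from a stranded low-input kit, identical reads were collapsed, all libraries were downsampled to 1 size, and read 2 was aligned by PRAISE-tool to RefSeq transcripts of GRCm39. The submitters' processing notes name cutadapt 4.2 and UMI-tools 1.0.0. A site that missed the authors' rules in a replicate carried no value there.

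Computations used Python 3.11.15, NumPy 2.4.6, SciPy 1.17.1, pandas 2.3.3 and matplotlib 3.10.9. Chemistry reads of the replicates were compared at each site by a two-sided Fisher exact test with Benjamini-Hochberg adjustment over all 441 sites of the table with a minimum of 20 in both, at 0.05. The script was tested on simulated data. Classes and forms were described by medians, without a test. Intervals are Wilson 95% intervals and cover counting error only. RNA lengths and host genes came from a RefSeq table of GRCm38.p6, matched by accession and version for 55 RNAs and by symbol for 2. A spreadsheet had turned 3 runs into dates, which were read back. Run coordinates marked the last position in 22 of 22 RNAs where a second site allowed the check. Alternatives were other read minimums, a level over 10 points, no control subtraction, 1 site per RNA, each replicate left out and, added after the data were seen, genes with 1 listed copy.

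The members and lists were chosen with earlier results of these data known. Sites were named for Cajal body genes, RNAs with at least 3 sites, the rRNA precursor processing list, the 8 highest and 3 lowest called sites of box C/D and box H/ACA, RNAs that share a host gene, sites that differed between replicates and the 3 deepest sites listed in 1 replicate. Others named were chosen after their values were seen.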

Additional observations from a re-analysis of the deposited data

How the results depend on the processing

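The medians of called sites kept their order by class, box H/ACA above box C/D, under each alternative for which medians were computed, which leaves out the level over 10 points, and runs stayed above single positions there. The number of member sites called in both replicates was 71, against 79 at 10 reads, 56 at 50 reads and 52 at a level over 10 points, and 81 to 83 with 1 replicate left out. For Cajal body sites it was 2, against 1 at 50 reads and 3 to 4 with 1 replicate left out. The 50-read minimum gave medians of 15.9% for box C/D sites and 11.8% for single positions, and the 10-read minimum 35.0% for runs. With 1 site per RNA, single positions had 17.7% and runs 26.3%. Without genes with more than 1 listed copy, chosen after seeing the data, box C/D sites had 20.4% and single positions 19.9%. With 1 replicate left out, medians were 16.4% to 16.9% for box C/D, 43.4% to 51.4% for box H/ACA and 18.3% to 18.8% for Cajal body sites, 11.9% to 14.9% for single positions and 20.5% to 25% for runs. Leaving out a replicate and lowering the read minimum change which sites enter, and no other cause was tested. The site that differed between replicates was 1 at each read minimum. No paired analysis was possible because values of the untreated samples alone were analysed, and RESTART v3 against untreated, with its replicate block, was not run. In replicate 2 no level under 16.7% was called at 20 to 50 chemistry reads, and 15 member sites had fewer than 20 reads in a listed library.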
